A study of Mus musculus with 6 samples.

Results

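Inherited motor neuron disease can start from faults in very different machines of the cell. The genes described here are the mouse counterparts of human genes mutated in amyotrophic lateral sclerosis or in spinal muscular atrophy: Sod1, Tardbp, Vcp, Optn, Sqstm1, Smn1, Vapb and Matr3. They were taken by name, and every probe set of the array annotated to 1 of these genes and to no other was a member. Of 8 listed genes, 7 had members, and these 7 had 22 of the 45101 probe sets on the array; no value is given for Optn.

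Whole spinal cord of 3 wild type and 3 Nogo-A KO mice, all male, untreated, aged 4 months and labelled C57Bl/6, was measured on 1 Affymetrix Mouse 430 2.0 array per animal. The labels name no transgene and no disease mutation in either group, so the levels are read as those of these genes in intact cord. The comparison asks whether loss of Nogo-A moved them. Nogo-A is the longest product of Rtn4, a membrane protein that oligodendrocytes and some neurons make and that restrains axon growth, and it has been studied in muscle and mouse models of amyotrophic lateral sclerosis. Values are linear MAS 5.0 signals as the authors scaled them, a measure of brightness in arbitrary units. A probe set is a group of short probes for a transcript or part of it, and probe sets differ in how well they bind, so a difference in signal between probe sets does not show a difference in RNA; a percentile only places a signal on its own array.

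As background, the 8 proteins fall into 4 lines of work. Sod1 encodes the copper and zinc superoxide dismutase of the cytosol, which removes superoxide, and its mutant forms misfold. Tardbp (the protein TDP-43) and Matr3 (matrin 3) encode nuclear RNA-binding proteins, and Smn1 encodes the protein that loads Sm proteins onto small nuclear RNAs for splicing; its human counterpart is the gene lost in spinal muscular atrophy. Vcp is an ATPase that pulls ubiquitinated proteins out of complexes and membranes, Sqstm1 (p62) and Optn (optineurin) are receptors that carry ubiquitinated cargo into autophagy, and Vapb sits in the endoplasmic reticulum and tethers it to other membranes. All are made in many cell types, so a whole-cord signal sums neurons and glia, and fewer cells of a type cannot be told apart from less RNA per cell.

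The starts of 4 genes are shown because 3 of them, Sod1, Sqstm1 and Vcp, had probe sets near the top of the array, and because Tardbp held the members with an unadjusted p under 0.05. Matr3 also had probe sets near the top of the array, and its sequence is not used here. Each stretch runs from 150 bases before to 50 bases after the RefSeq start of transcription, 200 bases in all, from build GRCm38.p6. Capitals mark matches, on either strand, to TATAAA (the motif of the TATA box), to CCAAT (the motif bound by NF-Y), to GGGCGG (the GC box) or to TGACNNNGC (the antioxidant response element).
Sod1 (chr16:90220612-90220811, plus strand): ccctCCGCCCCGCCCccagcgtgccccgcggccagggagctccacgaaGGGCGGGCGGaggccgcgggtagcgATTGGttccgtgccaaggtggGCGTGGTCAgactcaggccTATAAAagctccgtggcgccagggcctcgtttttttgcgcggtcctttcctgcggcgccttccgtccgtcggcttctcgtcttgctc
Sqstm1 (chr11:50210771-50210970, minus strand): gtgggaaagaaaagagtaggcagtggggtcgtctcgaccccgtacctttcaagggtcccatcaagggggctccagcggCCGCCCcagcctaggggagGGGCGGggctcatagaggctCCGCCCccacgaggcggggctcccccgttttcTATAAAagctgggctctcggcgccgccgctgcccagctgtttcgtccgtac
Vcp (chr4:43000458-43000657, minus strand): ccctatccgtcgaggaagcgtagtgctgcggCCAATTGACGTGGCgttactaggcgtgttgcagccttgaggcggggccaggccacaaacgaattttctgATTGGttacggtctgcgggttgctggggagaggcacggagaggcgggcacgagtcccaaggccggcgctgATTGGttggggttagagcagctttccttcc
Tardbp (chr4:148626947-148627146, minus strand): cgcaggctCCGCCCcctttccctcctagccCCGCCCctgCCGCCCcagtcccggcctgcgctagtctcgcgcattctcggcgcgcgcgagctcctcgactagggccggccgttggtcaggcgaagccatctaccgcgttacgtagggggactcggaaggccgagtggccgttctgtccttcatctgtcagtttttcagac

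These starts were built differently. TATAAA began 37 bases before the start in Sod1, 1 base before it in Sqstm1 and 249 bases before it in Vcp, upstream of the stretch shown, and there was no match in the window of Tardbp; 13.6% of 32851 RefSeq promoter windows of 300 bases held this motif on either strand. The 300-base window of Vcp held 5 matches to CCAAT, of which 3 lie in the stretch shown, against 37.4% of all windows with any match. GC boxes numbered 4 in Sod1, some of them overlapping each other, 3 in Sqstm1 and 3 in Tardbp, and none in Vcp, and 35.7% of windows held at least 1. The antioxidant motif, found in 12.4% of windows, matched once in Sod1 and once in Vcp. A match describes letters only, and none of these sites was measured here.

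The label of genotype held at the targeted gene. The Rtn4 probe set 1437224_at read 3560, 2790 and 2802 in the wild type animals, given here and below in the order of their replicate numbers, and 78.2, 9.17 and 5.08 in the knockout animals. It was the single call among 23525 tested probe sets (limma, Benjamini-Hochberg adjusted p = 0.0151). Markers fixed for the cells of the cord were present. All 6 neuronal and all 4 astrocyte markers passed the filter on dim signals, and of 7 motor neuron markers 4 passed (Ache, Prph, Slc18a3 and Slc5a7) while Chat, Isl1 and Mnx1 did not. The arrays differed in other cells: 5 skeletal muscle genes added up to a signal of 10674 in knockout replicate 2 and 5343 in wild type replicate 3, while the remaining arrays had 934 to 1848. Wild type replicate 3 also had the brightest dim end, with a 5th percentile of 19.98 against 4.57 to 10.5 elsewhere.

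No member passed the adjusted threshold. A probe set was tested where at least 2 of the 3 animals of a genotype had a signal at or above the 50th percentile of their array, which held for 20 of the 22 members. Of these, 0 had an adjusted p under 0.05 in limma, where 0.00425% of all tested probe sets did, and their adjusted p-values ran from 0.591 to 0.992. At an unadjusted p under 0.05, 1 member was higher in knockout (4.31% of all tested probe sets) and 1 was lower (3.98%), and both belonged to Tardbp. With array median scaling 3 members were higher and 0 lower, where 2805 and 265 of all 23525 tested probe sets were. After quantile normalization 1 member was higher and 2 were lower, where 863 and 658 of all 23525 were. The median log2 difference, knockout minus wild type, was 0.034 over the 20 members and 0.0079 over all tested probe sets, and 17 of the 20 differed by less than 1.2-fold, the fold named in the design of the series. By the methods' t-test at an unadjusted p under 0.05 with that fold, 0 members passed, against 4.83% of all tested probe sets. The median distance from the estimate to the end of its 95% interval was 0.27 on the log2 scale for members, against 0.399 for all tested probe sets.

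**Figure D1:**
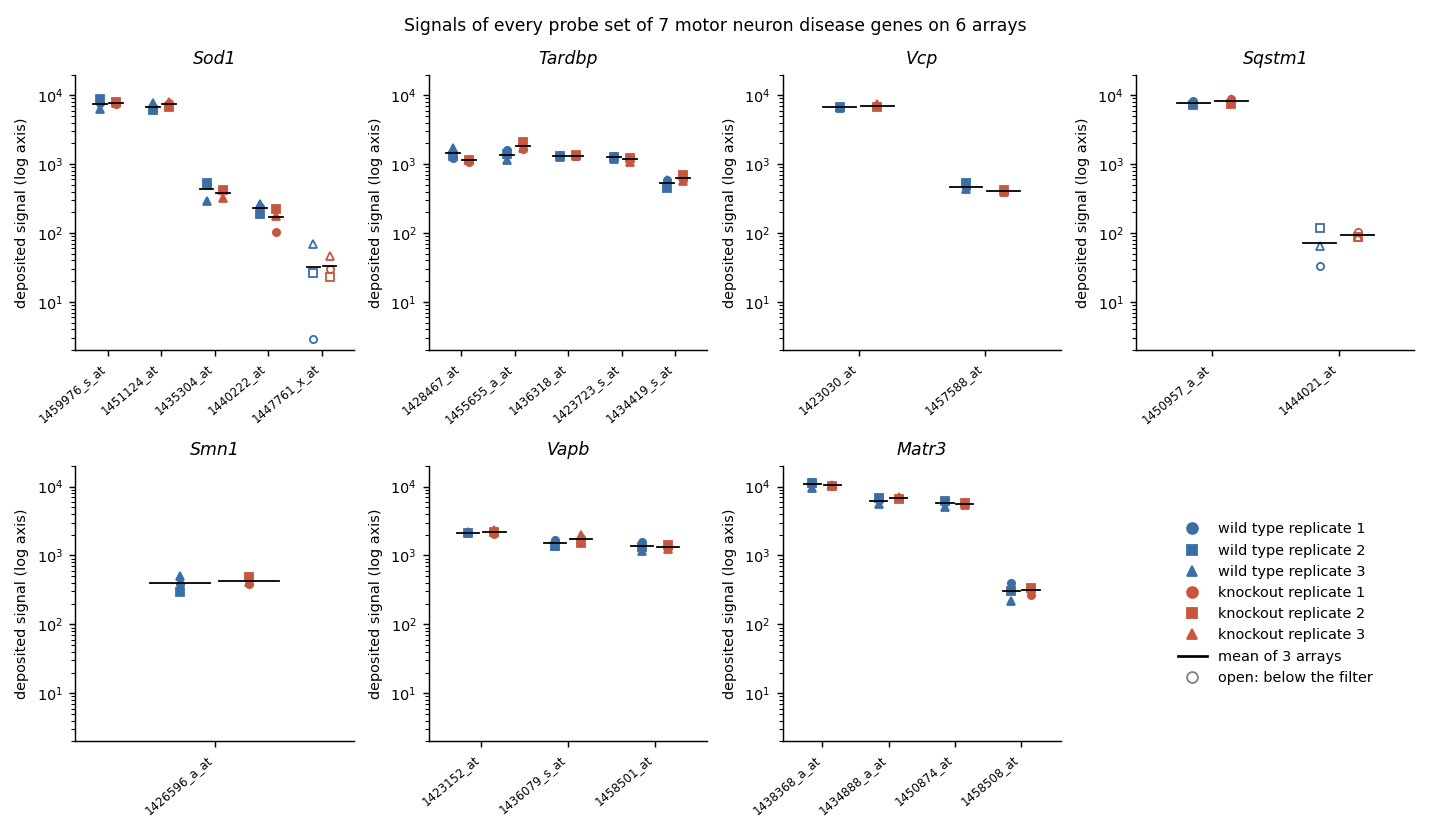
Deposited signal (log axis) of every probe set of the 7 genes on each of the 6 arrays; blue marks are wild type and red marks knockout animals, the shape gives the replicate number, bars are means of 3 arrays and open marks are the 2 probe sets that did not pass the filter. Wild type and knockout marks overlap at most probe sets. The 2 Tardbp probe sets 1455655_a_at and 1428467_at are separated in opposite directions, and so are the 2 probe sets of Vcp. Of 20 tested members, 2 were higher and 2 lower without overlap, as were 7.85% and 6.62% of all tested probe sets.

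Sod1, the dismutase, was measured by 5 probe sets, and its bright ones stood near the top of the array. Probe set 1459976_s_at read 7765, 8716 and 6240 in wild type and 7443, 7987 and 7779 in knockout. The knockout signals all lay inside the wild type range, and the fold of knockout over wild type was 1.03 (95% interval 0.862 to 1.23, limma adjusted p = 0.937). Probe set 1451124_at read 6273, 6211 and 7836 in wild type and 7671, 6726 and 8109 in knockout, with overlap, for a fold of 1.11 (interval 0.934 to 1.32, limma adjusted p = 0.720).

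Both bright Sod1 probe sets lay between the 97.9th and the 98.8th percentile of every array, but they did not rank the wild type animals alike: wild type replicate 3 was the lowest of the 6 arrays at the first and the highest of the wild type arrays at the second. The dimmer 1435304_at read 498, 532 and 287 in wild type and 416, 419 and 324 in knockout, and again wild type replicate 3 was lowest. Without that array, 1451124_at had a log2 difference of 0.26 (limma unadjusted p = 0.0136, adjusted p = 0.326). For 1435304_at it was then -0.43 (limma unadjusted p = 0.0316, adjusted p = 0.394). In that setting 1487 of 23525 tested probe sets were higher and 1217 lower at an unadjusted p under 0.05 in limma. With all arrays the counts were 1013 and 937. The probe set 1440222_at read 239, 189 and 267 in wild type and 105, 225 and 177 in knockout. With a fold of 0.702 (interval 0.424 to 1.16), it had the widest interval among the tested members on the log2 scale. It reached only the 43.5th percentile on its lowest array, and knockout replicate 1 had the lowest signal. The remaining Sod1 probe set, 1447761_x_at, had signals of 2.90 to 68.6 and was not tested.

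Vcp, the segregase, had a bright and a dim probe set. The bright 1423030_at read 6738, 6655 and 6550 in wild type, a coefficient of variation of 1.42%, and 7004, 6798 and 7450 in knockout. Every knockout array was above every wild type array, as in 7.85% of all tested probe sets, but the fold was 1.06 (interval 0.938 to 1.21, limma adjusted p = 0.777). The dim 1457588_at went the other way without overlap, with 444, 535 and 432 in wild type, a coefficient of variation of 11.98%, and 397, 424 and 388 in knockout (fold 0.860, interval 0.674 to 1.10, limma adjusted p = 0.718), where 6.62% of tested probe sets were lower without overlap. The probe sets of Vcp therefore disagreed in direction, and neither difference passed an unadjusted p of 0.05.

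Sqstm1, the autophagy receptor, read 8292, 7214 and 7803 in wild type and 8805, 7431 and 8793 in knockout at 1450957_a_at. The genotypes overlapped and the fold was 1.07 (interval 0.922 to 1.25, limma adjusted p = 0.795), with every array above the 98.3rd percentile. Its other probe set, 1444021_at, stayed between 33.8 and 118 on all arrays, under the median of each, and was not tested.

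Vapb, the membrane tether, had 3 probe sets, all well above the middle of the array. Probe set 1423152_at read 2130, 2115 and 2205 in wild type and 2026, 2205 and 2344 in knockout, a coefficient of variation of 2.24% in wild type and a fold of 1.02 (interval 0.873 to 1.19, limma adjusted p = 0.960). Probe set 1436079_s_at read 1697, 1385 and 1394 in wild type and 1792, 1497 and 1950 in knockout, with overlap at knockout replicate 2, and its fold of 1.17 had an interval from 0.955 to 1.43 (limma adjusted p = 0.667). Probe set 1458501_at read 1545, 1344 and 1173 in wild type and 1286, 1406 and 1256 in knockout, for a fold of 0.977 (interval 0.804 to 1.19, limma adjusted p = 0.957).

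Smn1, the splicing assembly factor, rested on a single probe set of modest signal. It read 382, 296 and 498 in wild type and 380, 494 and 406 in knockout at 1426596_a_at, between the 62.6th and the 73.3rd percentile of the arrays. All knockout signals lay inside the wild type range, and the coefficient of variation in wild type was 25.8%. The fold was 1.11 with an interval from 0.800 to 1.53 (limma adjusted p = 0.870), which covers both directions.

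Matr3, the other nuclear RNA-binding protein, had 3 bright probe sets with folds close to 1. Probe set 1438368_a_at read 11764, 11325 and 9612 in wild type and 10328, 10299 and 10623 in knockout, with a fold of 0.959 (interval 0.831 to 1.11, limma adjusted p = 0.881). At 1450874_at the signals were 5873, 6121 and 5074 in wild type and 5638, 5804 and 5455 in knockout (fold 0.993, interval 0.857 to 1.15, limma adjusted p = 0.985). At 1434888_a_at they were 6448, 6752 and 5609 in wild type and 6808, 6607 and 7044 in knockout (fold 1.09, interval 0.944 to 1.26, limma adjusted p = 0.723). All 3 overlapped between the genotypes and had their lowest signal on wild type replicate 3. The dim 1458508_at, at 402, 307 and 221 in wild type and 265, 337 and 334 in knockout, had the same low array and a fold of 1.03 (interval 0.713 to 1.49).

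Tardbp had 2 probe sets with an unadjusted p under 0.05, 1 higher and 1 lower in knockout. Probe set 1455655_a_at read 1589, 1392 and 1163 in wild type and 1659, 2090 and 1721 in knockout. Every knockout animal was above every wild type animal, and the fold was 1.32 (interval 1.07 to 1.64, limma unadjusted p = 0.0150, adjusted p = 0.591). Probe set 1428467_at read 1245, 1331 and 1715 in wild type and 1079, 1156 and 1159 in knockout. Here every knockout animal was below every wild type animal, and the fold was 0.798 (interval 0.649 to 0.981, limma unadjusted p = 0.0352, adjusted p = 0.595). After division by array medians the knockout animals overlapped wild type at 1428467_at, and its log2 difference shrank from -0.33 to -0.10 (limma unadjusted p = 0.550). Without wild type replicate 3 it was -0.19 (limma unadjusted p = 0.128), and its unadjusted p was 0.106, 0.0634 and 0.0622 without knockout replicates 1, 2 and 3. Without knockout replicate 2, 1455655_a_at was at a log2 difference of 0.30 (limma unadjusted p = 0.0795).

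The other Tardbp probe sets lay between these. At 1436318_at the signals were 1366, 1327 and 1259 in wild type and 1304, 1361 and 1301 in knockout, a fold of 1.00 (interval 0.854 to 1.18) with a coefficient of variation of 4.11% in wild type. At 1423723_s_at they were 1332, 1285 and 1184 in wild type and 1222, 1216 and 1072 in knockout, with overlap and a fold of 0.923 (interval 0.774 to 1.10). At 1434419_s_at they were 584, 456 and 584 in wild type and 598, 702 and 561 in knockout, with overlap and a fold of 1.15 (interval 0.90 to 1.47). TDP-43 binds its own messenger RNA and limits it, and the gene gives several transcripts, but where along the transcript each probe set lies is not given in the sources used here.

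A ratio of 2 probe sets on the same array does not depend on a factor that multiplies the whole array, so each pair of tested probe sets of a gene was also compared as a ratio. This comparison was chosen after the signals of Tardbp had been seen. The ratio of 1455655_a_at to 1428467_at was 1.28, 1.05 and 0.678 in wild type and 1.54, 1.81 and 1.48 in knockout. The genotypes did not overlap, and the ratio was 1.66-fold higher in knockout (interval 1.20 to 2.30, limma unadjusted p = 0.00581). Over all 14318 pairs tested in the array its adjusted p was 0.635 in limma, and its p ranked 117th from the smallest.

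Among 26 member pairs, 4 had an unadjusted p under 0.05, all of Tardbp, where 7.48% of all pairs did. Pairs share probe sets: 3 of these 4 contain 1455655_a_at and 2 contain 1428467_at. Ratios did not overlap between genotypes in 9 of the 26 member pairs (13.1% of all pairs), of which 6 were of Tardbp, 2 of Matr3 and 1 of Vcp. None of the 26 passed an adjusted p of 0.05, against 0.0279% of all pairs, which were 4 pairs of Rtn4 that contain the probe set lost in knockout. Wild type replicate 3 had the lowest ratio of the leading Tardbp pair, and without that array the log2 difference fell from 0.73 to 0.47 (limma unadjusted p = 0.0120, adjusted p = 0.386).

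**Figure D2:**
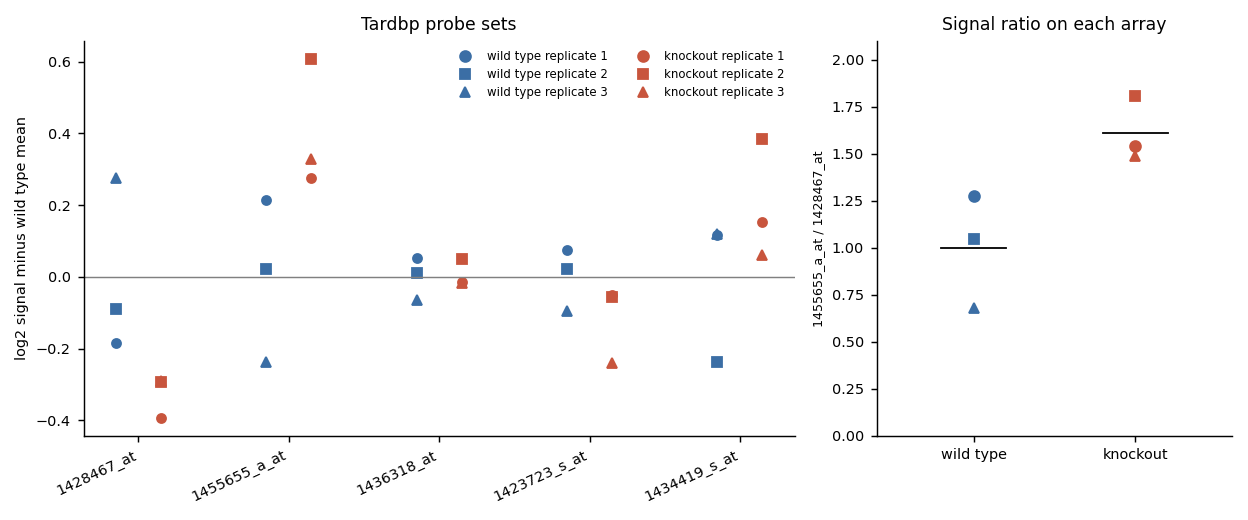
Left, log2 signal of the 5 Tardbp probe sets on each array minus the mean of the 3 wild type arrays for that probe set; right, the ratio of the signals of 1455655_a_at and 1428467_at on each array, with bars at the means of 3 arrays. Knockout animals (red) lie above wild type (blue) at 1455655_a_at and below it at 1428467_at, and the ratio runs from 0.678 to 1.28 in wild type and from 1.48 to 1.81 in knockout.

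The sign of several members changed with the scaling of the arrays. Division by the array median, the step that the design text names, moved the median log2 difference of all tested probe sets from 0.0079 to 0.23, and that of the members from 0.034 to 0.26. After quantile normalization, which forces the same distribution on every array, the medians were 0.019 and -0.024. Of the unadjusted calls over all probe sets, 51.9% were higher in knockout with the scaling of the authors, 91.4% with array medians and 56.7% after quantile normalization. Relative to the shift of each scaling, 1455655_a_at stayed the member farthest above and lay at a log2 difference of 0.63 with array medians and 0.37 after quantile normalization.

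**Figure D3:**
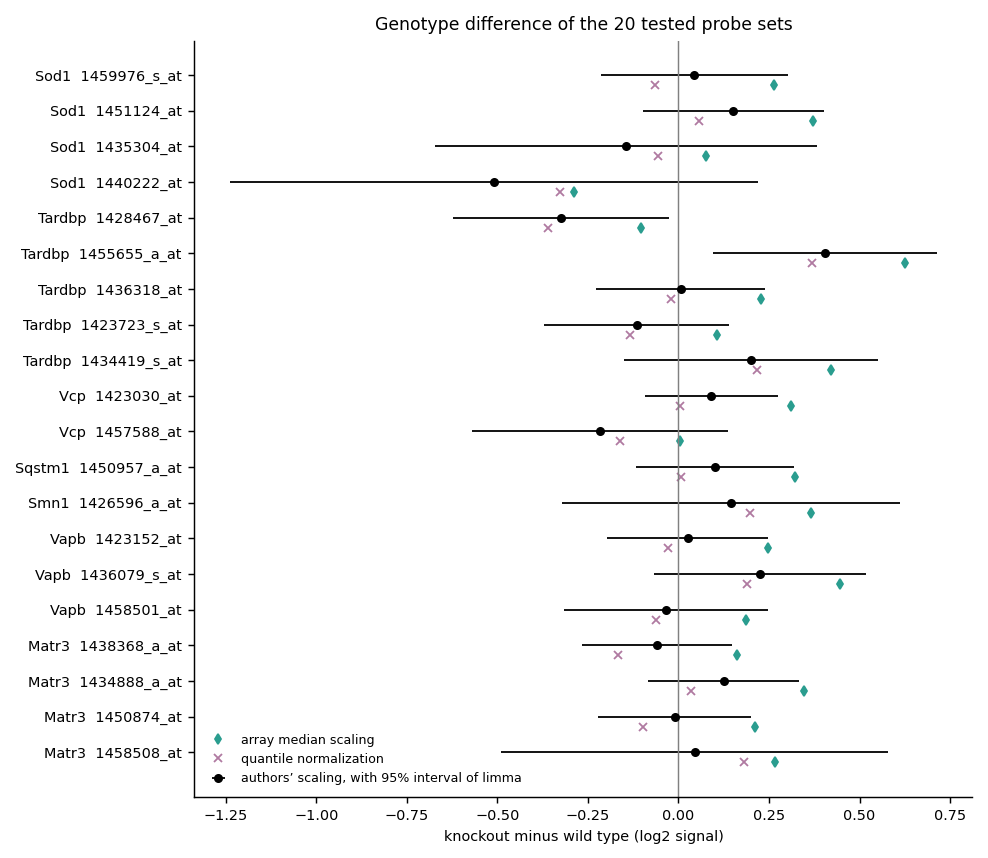
Knockout minus wild type difference in log2 signal for the 20 tested probe sets; black points and lines are the estimates and 95% intervals of limma with the scaling of the authors, diamonds are the estimates after division by array medians and crosses those after quantile normalization. The intervals of 18 probe sets include 0, and those of Tardbp 1455655_a_at and 1428467_at lie on opposite sides of it.

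Related genes were taken from 7 lists, and no gene in them passed the adjusted threshold in limma. Each gene was read at its brightest tested probe set. The counts below are for an unadjusted p under 0.05 in limma, which 4.31% of tested probe sets passed on the higher and 3.98% on the lower side. That background includes dim probe sets, and brighter ones leaned upward as a whole. With the 75th percentile filter, 779 of 11676 probe sets were higher and 245 lower, and their median log2 difference was 0.049. Of 26 other motor neuron disease genes that could be tested, 3 lay higher in knockout and 0 lower, with a median log2 difference of 0.13. Ewsr1, which encodes an RNA-binding protein, was 1.27-fold (wild type 2487 ± 148, knockout 3156 ± 246, SD, n = 3 each). The heavy neurofilament gene Nefh was 1.17-fold and Prph, the peripherin of motor and sensory axons, 1.31-fold, each with a limma adjusted p of 0.591 to 0.598. Some marker signals were apart between the genotypes too, but no marker passed the adjusted threshold in limma. The summed signal of 4 motor neuron markers was 2392 to 3298 in wild type and 3302 to 4153 in knockout. Each of these 4 overlapped on its own: Ache was 1.38-fold, Prph 1.31-fold, Slc18a3 1.24-fold and Slc5a7 1.02-fold. For 6 neuronal markers the sums overlapped, at 86757 to 106373 in wild type and 104253 to 109268 in knockout. The sum of 4 oligodendrocyte markers was 71031 to 73267 and 83409 to 94445, of which Mbp (1.23-fold) and Cnp (1.23-fold) made up most; Mag (1.18-fold) and Mog (0.973-fold) overlapped. Pmp22, the only 1 of 3 listed Schwann cell markers with a probe set of its own, was 1.37-fold without overlap. Of the meningeal and fibroblast markers Col1a1 was 1.97-fold, Col1a2 1.54-fold, Dcn 1.27-fold and Lum 0.723-fold, all without overlap. All 4 astrocyte markers overlapped, with Gfap at 1.48-fold, Slc1a3 at 1.17-fold, Aldh1l1 at 1.04-fold and Aqp4 at 0.859-fold. Of 4 microglial markers 0 had a log2 difference above 0, with a median of -0.13, and each overlapped. Among 3 endothelial markers Pecam1 was 0.651-fold without overlap, while Cldn5 (0.907-fold) and Flt1 (1.17-fold) overlapped. Prph is itself among those motor neuron markers and Nefh among the neuronal ones, and the part of cell makeup in these differences was not tested.

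The partners of SOD1 and the antioxidant genes had 2 members higher and 1 lower of 21 tested, with a median of 0.070. Ccs, the chaperone that loads copper into SOD1, read 519 ± 34.2 in wild type and 674 ± 64.1 in knockout, with no overlap (1.30-fold, limma adjusted p = 0.594). The metallothioneins, which bind zinc and copper, went both ways: Mt2 read 7823 ± 1565 and 5004 ± 346, or 0.648-fold, and Mt3 read 5492 ± 2419 and 8339 ± 2178, or 1.59-fold with overlap (SD, n = 3 each, limma adjusted p = 0.591 and 0.595). The list of RNA-binding partners of TDP-43 and matrin 3 also holds Stmn2, whose product is not an RNA-binding protein. Of its 23 genes, 3 were higher and 1 lower, and the median was 0.049. Hnrnpl, a splicing factor, was 1.41-fold, Rbm14, a paraspeckle protein, 1.27-fold, and Stmn2, a growth protein of axons whose transcript TDP-43 protects in human neurons, 1.17-fold, at 10096 ± 597 and 11830 ± 517. The lower one, named after its value was seen, was Ptbp1, a splicing repressor, at 0.558-fold (limma unadjusted p = 0.0443).

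Autophagy genes had 2 higher and 0 lower of 23, with a median of 0.043. Map1lc3a, which marks autophagosomes and is bound by p62, was 1.21-fold, Atg9a, a lipid scramblase of forming autophagosomes, was 1.31-fold, and Gabarap, of the LC3 family, was 1.13-fold with an unadjusted p of 0.0594. Cofactors of VCP had 0 higher and 0 lower of 21, led by Ubxn6 at 1.22-fold (unadjusted p = 0.0846), with Faf2 at 0.842-fold and Faf1 at 1.13-fold, and their median was -0.013. The SMN complex and Sm proteins also had 0 and 0 of 17, with Gemin8 at 0.696-fold, Gemin7 at 0.814-fold and Ddx20 at 0.833-fold, and a median of 0.012; Gemin2, named after its value was seen, had a log2 difference of 0.49 (limma unadjusted p = 0.222). VAP proteins and their partners had 0 higher and 1 lower of 21, with a median of 0.046: Mospd3, which like VAPB has a major sperm protein domain, was at 310 ± 38.2 in wild type against 170 ± 59.7 in knockout, with no overlap, or 0.527-fold (SD, n = 3 each, limma adjusted p = 0.591). Esyt1 and Pitpnm2 were 1.22-fold and 1.25-fold.

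**Figure D4:**
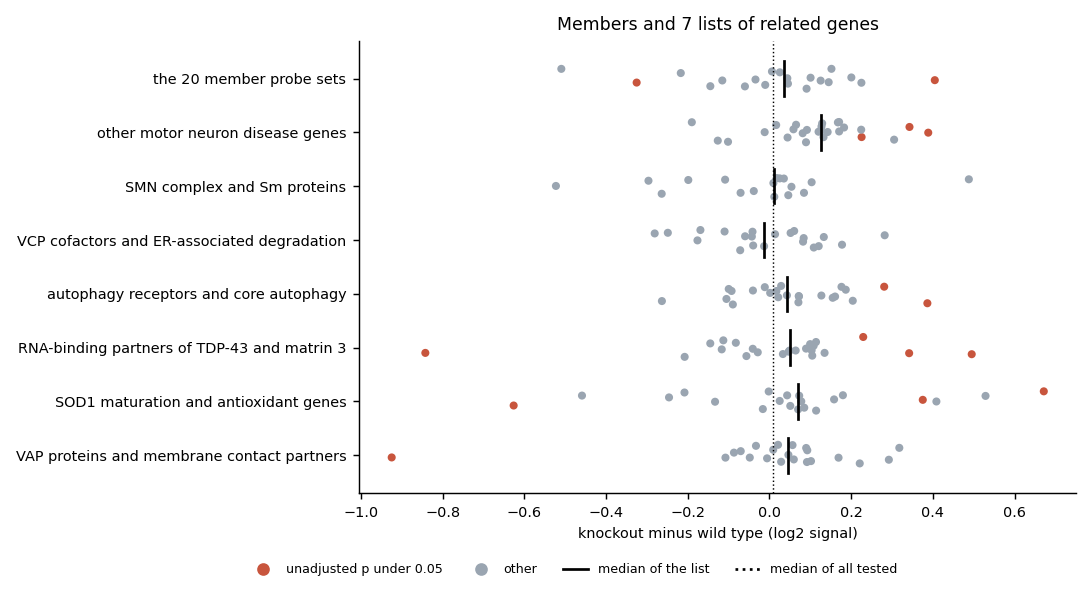
Knockout minus wild type difference in log2 signal of the 20 member probe sets and of the tested genes of 7 related lists, with a point per probe set or gene; red points have an unadjusted p under 0.05 in limma, black bars are medians of the lists and the dotted line is the median of all tested probe sets. List medians run from -0.013 for the VCP cofactors to 0.13 for the other motor neuron disease genes, and no point passed the adjusted threshold.

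For each gene the probe sets whose log2 signals followed its brightest probe set most closely over the 6 arrays were listed, among 11226 named genes. Sod1 was followed by Hint1 (Pearson r = 0.994) and Setd3 (0.993), Tardbp, at 1455655_a_at, by Tbcel (0.995) and Ptgr2 (0.991), and Vcp by Vamp1 (0.991) and Zcrb1 (0.990). Sqstm1 was followed by Klhl26 (0.990) and Kcnk3 (0.988), Smn1 by Kdelr2 (0.994) and Dennd2a (0.973), Vapb by Sox13 (0.985) and Mrps16 (0.978), and Matr3 by Enpp5 (0.991) and Zfp606 (0.983). With 6 arrays such values are common: from 32 genes for Vapb to 273 for Sod1 had an r above 0.9. All these values share the scale of each array, and they describe likeness of signal only. The correlation takes no account of how far a signal moved. Kcnk3 ran from 21.8 to 246 over the 6 arrays, while Sqstm1 at 1450957_a_at ran from 7214 to 8805. Sox13 was also dim, at 86.6 to 262.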

How the data were processed

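The authors' deposited values are intensities on a linear scale, read from the scans by MAS 5.0 (GCOS 1.4, per the submitters' processing notes). The mean of each array after trimming 2% at each end was 499.87 to 499.89, so they had already been scaled, and log2 of these values was compared. Of the series' text, the later GeneSpring 7.2 steps were not in them; the per-chip median was an alternative because it shifted all probe sets together. Control probe sets (64) were left out. Knockout and wild type were compared in limma 3.58.1 under R 4.3.3 (lmFit, eBayes with trend, 2-sided, Benjamini-Hochberg over 23525 probe sets, threshold 0.05), and the model was tested on simulated data. Pairs of probe sets used the same model on log2 ratios, with the level of the dimmer probe set as trend. Names came from the platform annotation, updated by gene identifier to a RefSeq table of GRCm38.p6 (34754 of 35890 annotated probe sets matched). The files name no build. Promoters are RefSeq's. Replicates are labelled as separate animals, and the number of arrays limits the precision: 3 against 3 cannot give an exact permutation p below 0.1. Members and lists were chosen with earlier results of these data known. Named genes were all member probe sets, up to 3 genes of each list with the smallest p, the 2 closest followers of each member, the Rtn4 probe set with the smallest p, and the muscle genes, given here as a sum; Ptbp1, Gemin2 and the cell markers given with a fold were added after their values were seen. Other settings were the scaling, the filter (none, 25th, 75th percentile), an offset of 50, no trend, the replicate block, each array left out and the methods' t-test; the pair ratios, and centring on the tested probe sets, were added after seeing the data.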

Additional observations from a re-analysis of the deposited data

How the results depend on the processing

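No member passed the adjusted threshold under any setting tried. The count of all probe sets past it was 1, and it was 0 without the trend and 0 in the methods' t-test, 4 with the replicate block, and 0 to 9 with an array left out; without wild type replicate 1, 2 or 3 it was 9, 0 and 3, and without knockout replicate 2 it was 0. The replicate block treats the label numbers as pairs; same-numbered arrays had correlations of their deviations of -0.034, 0.074 and 0.11, so no pairing was shown, and with the block 2 members had an unadjusted p under 0.05, as without it. That count of 2 was 1 without the trend, 0 in the methods' t-test with a fold of at least 1.2 (4.83% of all tested probe sets passed; smallest adjusted p over all 0.660), and 1 to 3 with an array left out. It was 1 without knockout replicate 1 or 3 (1455655_a_at) and 1 without knockout replicate 2 (Vapb 1436079_s_at, limma unadjusted p = 0.0413, with neither Tardbp probe set). It was 3 without wild type replicate 3 (1455655_a_at and Sod1 1451124_at and 1435304_at), 3 with array median scaling (1455655_a_at, Tardbp 1434419_s_at and Vapb 1436079_s_at) and 3 after quantile normalization (both Tardbp probe sets and Matr3 1438368_a_at). Over all 23525 tested probe sets, 1487 were higher and 1217 lower at that p without wild type replicate 3. With array median scaling 2805 and 265 were, and after quantile normalization 863 and 658. With the authors' scaling and all arrays the counts were 1013 and 937, and without the trend 696 and 1139. Without knockout replicates 1, 2 and 3, 499, 856 and 392 were higher and 605, 741 and 554 lower. The median log2 difference of members was 0.26 with array median scaling and -0.058 to 0.067 with an array left out, the lowest without wild type replicate 3.

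The sign of the members below turned. Array median scaling and centring on the tested probe sets each add a fixed amount to every log2 difference, so small negative values became positive. For the other settings the cause was not tested. With array median scaling the log2 differences became 0.076 for Sod1 1435304_at, 0.11 for Tardbp 1423723_s_at and 0.0036 for Vcp 1457588_at. They became 0.19 for Vapb 1458501_at, 0.16 for Matr3 1438368_a_at and 0.21 for Matr3 1450874_at. After quantile normalization they were -0.065 for Sod1 1459976_s_at, -0.021 for Tardbp 1436318_at and -0.028 for Vapb 1423152_at, and centring on the tested probe sets gave 0.015 for Matr3 1450874_at. With an array left out they ran from -0.089 to 0.15 for Sod1 1459976_s_at, -0.43 to 0.020 for Sod1 1435304_at, -0.026 to 0.033 for Tardbp 1436318_at and -0.042 to 0.33 for Smn1. They ran from -0.025 to 0.081 for Vapb 1423152_at, -0.13 to 0.066 for Vapb 1458501_at, -0.091 to 0.045 for Matr3 1450874_at and -0.18 to 0.25 for Matr3 1458508_at. Tardbp 1455655_a_at stayed higher (0.29 to 0.51) and 1428467_at lower (-0.42 to -0.19) with each array left out, and member pairs at an unadjusted p under 0.05 numbered 3 to 6.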
